A study of Mus musculus with 6 samples.

Results

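A set of 10 genes that cells switch on in response to type I interferon was followed across cultured follicular dendritic cells (FDC), bone marrow-derived dendritic cells (BMDC) and an FDC-like line. The genes were chosen by name: Ifit1, Ifit2, Ifit3, Mx1, Mx2, Isg15, Oasl2, Rsad2, Usp18 and Ifi44. Of these 10 genes, 8 had a probe set annotated to them alone, 10 probe sets in all of 45101 on the array, with 3 for Rsad2 and 1 for each of the other 7. The probe set listed for Isg15 carries a second gene as well and was not used. No probe set is listed for Ifi44, so both genes enter below by their promoter windows only. The study held 6 mouse samples of total RNA on 1 array each: the line FL-Y activated with an antibody to the lymphotoxin beta receptor (1 array), FL-Y itself, which is FDC-like and was transformed with SV40 (1 array), FDC kept in culture (2 arrays) and BMDC (2 arrays). The sources used here state no strain, age, sex, culture time or dose of antibody. The labels do not state whether the arrays of a group came from separate animals or cultures, so the p-values cover the spread between samples that may be technical replicates. A line is a single lineage of cells, and FL-Y has no replicate array.

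Type I interferons bind the receptor made of Ifnar1 and Ifnar2, whose kinases Jak1 and Tyk2 activate a complex of STAT proteins with Irf9. That complex binds the interferon-stimulated response element in the promoters of many genes. The products act on the virus itself or on its RNA and proteins. Interferon gamma uses a different receptor and acts largely through the gamma-activated site, and many genes answer to both interferons. Stromal cells and dendritic cells both carry the type I receptor.

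Promoter windows from RefSeq (build GRCm38.p6, 250 bases before to 50 after a transcript start) were available for 7 of the 10 genes, in 8 windows. The core of the response element was searched as GAAA, any 2 bases, GAAA, on both strands. It was found in 4 of the 8 windows, those of Ifit1, Ifit3, Isg15 and Rsad2, against 3.44% of 32851 windows of the same length. The windows of Ifi44, Ifit2 and Oasl2 held no match. Of the 8 windows, 3 held more than 1 match, against 0.225% of all windows; the 3 matches in the Isg15 window overlap each other. The gamma-activated site, TTCNNNGAA, which reads the same on both strands, occurred in 1 window of Ifit2, against 8.3% of all windows. The 200 bases before the start are printed for Ifit1 and Ifit3, the pair of genes that rose in FDC, for Rsad2, which differed most between the FDC arrays, and for Oasl2, which has no match. Capitals mark the matches, all of them here in the reverse orientation (TTTC, any 2 bases, TTTC).
Ifit1, chr19:34640689-34640888 (+ strand): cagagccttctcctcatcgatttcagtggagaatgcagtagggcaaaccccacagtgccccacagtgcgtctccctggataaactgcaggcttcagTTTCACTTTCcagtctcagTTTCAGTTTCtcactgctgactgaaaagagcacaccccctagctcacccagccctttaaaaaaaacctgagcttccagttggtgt
Ifit3, chr19:34583329-34583528 (+ strand): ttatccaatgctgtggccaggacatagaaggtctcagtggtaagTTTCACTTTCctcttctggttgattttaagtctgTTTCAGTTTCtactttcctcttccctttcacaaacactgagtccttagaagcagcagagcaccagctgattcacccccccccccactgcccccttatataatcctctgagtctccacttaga
Rsad2, chr12:26456453-26456652 (- strand): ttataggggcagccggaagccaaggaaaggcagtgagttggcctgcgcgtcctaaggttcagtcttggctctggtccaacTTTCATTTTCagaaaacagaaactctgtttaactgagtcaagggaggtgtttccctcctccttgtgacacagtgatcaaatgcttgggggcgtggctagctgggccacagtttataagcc
Oasl2, chr5:114896734-114896933 (+ strand): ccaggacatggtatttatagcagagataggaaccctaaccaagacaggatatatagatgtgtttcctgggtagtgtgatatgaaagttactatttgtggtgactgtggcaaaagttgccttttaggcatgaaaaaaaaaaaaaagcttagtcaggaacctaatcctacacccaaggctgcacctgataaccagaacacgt
The Ifit1 and Ifit3 windows on chromosome 19 hold the same pair of matches, TTTCACTTTC and then TTTCAGTTTC, which begin 104 and 85 bases before the start of Ifit1 and 156 and 122 bases before that of Ifit3. The single match of Rsad2, TTTCATTTTC, begins 120 bases before its start. A match is a description of the letters only, and no binding was measured.

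Each array had been scaled to a trimmed mean of 500, and the median signal ran from 47.8 on the activated FL-Y array to 84.1 on BMDC array 2. The 20th percentile of an array, taken as the mark of background, lay between 8.7 and 15.4. Of 9 markers of fibroblastic stroma 7 rose in FDC against BMDC and 0 fell, and 12 of 12 markers of leukocytes and myeloid cells fell. Of the 27022 probe sets tested, 4.83% rose and 4.09% fell. In RNA from whole cultures, fewer cells of a type and less RNA per cell cannot be told apart. Of 10 markers of FDC 0 rose and 3 fell (2 fell without any 1 of the arrays, and 1 rose without FDC array 2 or BMDC array 2), and Cr2, a complement receptor by which FDC are identified, measured 119.5 and 4.1 on the FDC arrays, against 59.1 and 71.1 on the BMDC arrays. The Cr2 signal of 4.1 was under the 20th percentile. The 3 FDC markers that fell were Fcgr2b, Mfge8 and Clu. For 3 others, Vcam1, Tnfsf13b and Cxcl13, both FDC arrays stood above both BMDC arrays, with no call. Vcam1 measured 6959 and 5764 on the FDC arrays, against 108.4 and 874.7 on the BMDC arrays. Of 6 T cell markers 3 rose in FDC, as did 4 of 5 mast cell markers. The T cell counts were 0 of 3 tested without FDC array 1, 2 of 5 without FDC array 2 and 0 of 6 without BMDC array 2. FDC is used below as the samples' name, and the part of these other cells in the results was not tested.

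Some IFIT proteins bind viral RNA and block its translation. Ifit1 had signals of 62.9 in activated FL-Y, 72.7 in FL-Y, 1558 and 2765 in FDC and 142.5 and 140.7 in BMDC. Both FDC arrays stood above both BMDC arrays, and both FL-Y arrays stood below them. Ifit1 rose in FDC by 3.75 ± 0.44 (SE) on the log2 scale (limma, adjusted p = 0.00979), with a 95% interval of 2.63 to 4.86. Ifit3 had signals of 62.7 in activated FL-Y, 61 in FL-Y, 1657 and 6778 in FDC and 90.4 and 95.5 in BMDC. The groups did not overlap, and the BMDC arrays were closer to FL-Y than to FDC. Ifit3 rose by 4.98 ± 0.72 (SE; limma, adjusted p = 0.0169), and without BMDC array 1 or BMDC array 2 its adjusted p was 0.0537 or 0.0532 at log2 differences of 4.94 and 5.01.

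Ifit2, the third member of the family, had a different profile. Its signals were 677.7 in activated FL-Y, 578.7 in FL-Y, 641.6 and 1726 in FDC and 250.7 and 227.7 in BMDC. Ifit2 was the only one of the 8 genes for which the FL-Y signals stood beside that of FDC array 1 and above both BMDC arrays. The FDC minus BMDC difference was 2.08 ± 0.57 (SE; limma, adjusted p = 0.0949), or 2.78 (adjusted p = 0.0440) without FDC array 1 and 1.37 (adjusted p = 0.189) without FDC array 2.

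Mx1 and Mx2 are dynamin-like GTPases, which in the mouse act in the nucleus and in the cytoplasm. Mx1 fell, and Mx2 did not pass the test. Mx1 had signals of 12.8 in activated FL-Y, 40.4 in FL-Y, 95 and 128.8 in FDC and 606.1 and 1362 in BMDC. It was the 1 gene of the 8 with both FDC arrays below both BMDC arrays. Mx1 fell in FDC by 2.89 ± 0.52 (SE; limma, adjusted p = 0.0317). The call was lost without BMDC array 2 (-2.31, adjusted p = 0.101), FDC array 1 (-2.69, 0.0946) or FDC array 2 (-3.08, 0.0649), while the direction held. Mx2 had signals of 4 in activated FL-Y, 2.4 in FL-Y, 149.9 and 748.4 in FDC and 8.7 and 125.2 in BMDC. The lower FDC array stood close to the higher BMDC array, and BMDC array 1 and both FL-Y arrays were under their 20th percentile. The Mx2 difference was 2.65 ± 1.11 (SE; limma, adjusted p = 0.235), with an interval of -0.15 to 5.45. It was 1.34 without BMDC array 1, 3.96 without BMDC array 2, 3.76 without FDC array 1 and 1.54 without FDC array 2, and passed the test in none of these fits.

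Oasl2 belongs to the oligoadenylate synthetase family, whose products switch on an RNA-degrading enzyme. Its signals were 33.4 in activated FL-Y, 40.7 in FL-Y, 703.9 and 3169 in FDC and 377.8 and 222 in BMDC. The FDC arrays lay above the BMDC arrays, but FDC array 1 was nearer to BMDC array 1 than to FDC array 2. The difference was 2.31 ± 0.78 (SE; limma, adjusted p = 0.155), or 3.39 (adjusted p = 0.0389) without FDC array 1 and 1.24 (adjusted p = 0.293) without FDC array 2.

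Rsad2, or viperin, is a radical SAM enzyme that limits the growth of many viruses. Its representative probe set had signals of 43.8 in activated FL-Y, 22.4 in FL-Y, 152.4 and 2669 in FDC and 851.9 and 536.1 in BMDC. The 2 FDC arrays lay on opposite sides of the BMDC arrays. The other probe sets of Rsad2 gave 12.2 and 629.5, and of 54.4 and 505.1, on the FDC arrays, against 225.6 and 189.4, and 44.1 and 139.2, on the BMDC arrays. FDC array 2 was the highest of the 6 arrays on each of the 3 probe sets. Their differences were -0.046 ± 1.29, -0.76 ± 1.46 and 1.00 ± 1.06 (SE), with an adjusted p (limma) of 0.988, 0.806 and 0.638.

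Usp18 removes Isg15 from proteins and also holds back signalling at the type I receptor. It had signals of 25.4 in activated FL-Y, 23.9 in FL-Y, 905.5 and 5779 in FDC and 2329 and 1015 in BMDC. As with the representative probe set of Rsad2, FDC array 1 lay below both BMDC arrays and FDC array 2 above both. The difference was 0.57 ± 0.96 (SE; limma, adjusted p = 0.777), with an interval of -1.85 to 2.995.

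**Figure D1:**
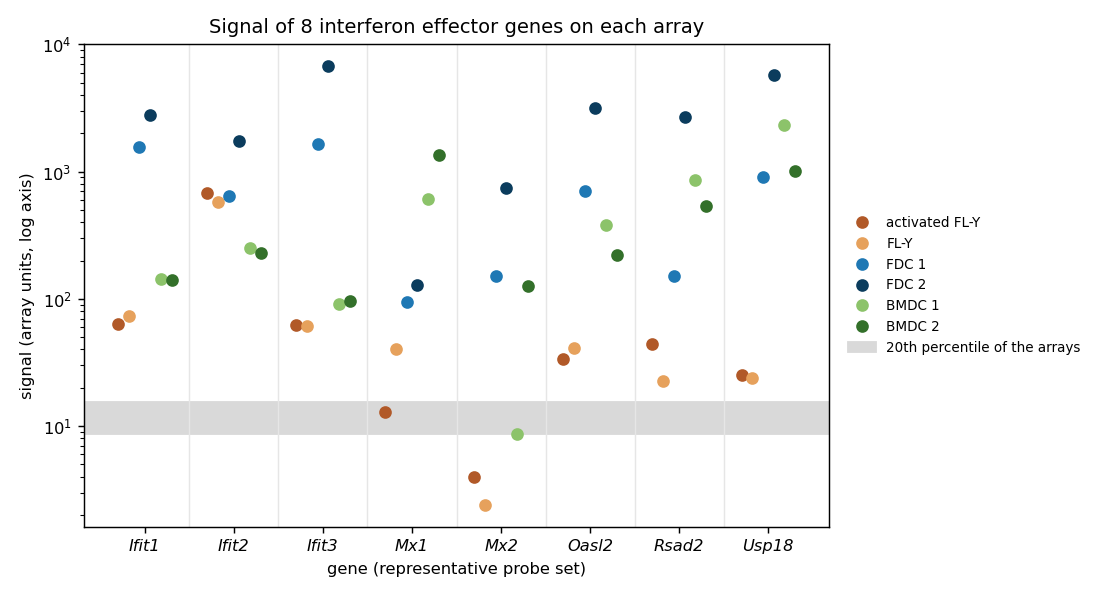
Signal of the representative probe set of each of the 8 genes (x axis) on the 6 arrays, on a log axis in array units; each point is 1 array and the grey band spans the 20th percentiles of the arrays, 8.7 to 15.4. FDC array 2 is the highest point for every gene but Mx1, and the FL-Y points are the lowest for every gene but Ifit2.

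Of the 8 genes, 2 rose in FDC against BMDC and 1 fell, while 4.83% of the 27022 probe sets tested rose and 4.09% fell (8.92% in either direction). All 10 probe sets passed the filter on dim probe sets. The median log2 difference over the 8 genes was 2.20, against -0.05 over all probe sets tested. Both FDC arrays stood above both BMDC arrays for 5 of the 8 genes, as for 25.8% of the probe sets tested, and below them for 1, as for 28.9%. Without FDC array 1, 4 genes rose and 0 fell with limma. Without FDC array 2, 2 rose and 0 fell. Without BMDC array 1, 1 rose and 1 fell, and without BMDC array 2, 1 rose and 0 fell. With 2 arrays on each side the smallest p of an exact permutation test is 0.333, and none was run.

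Set by array number, the comparison gave different values. Between the first arrays of FDC and BMDC the median over the 8 genes was 1.09, and between the second arrays it was 2.67. For Rsad2 it was -2.38 for the first pair and 2.29 for the second, and for Usp18 it was -1.35 and 2.49. For the other 6 genes both differences had the same sign. Ifit1 stood at 3.33 and 4.17, and Ifit3 at 3.999 and 5.95.

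**Figure D2:**
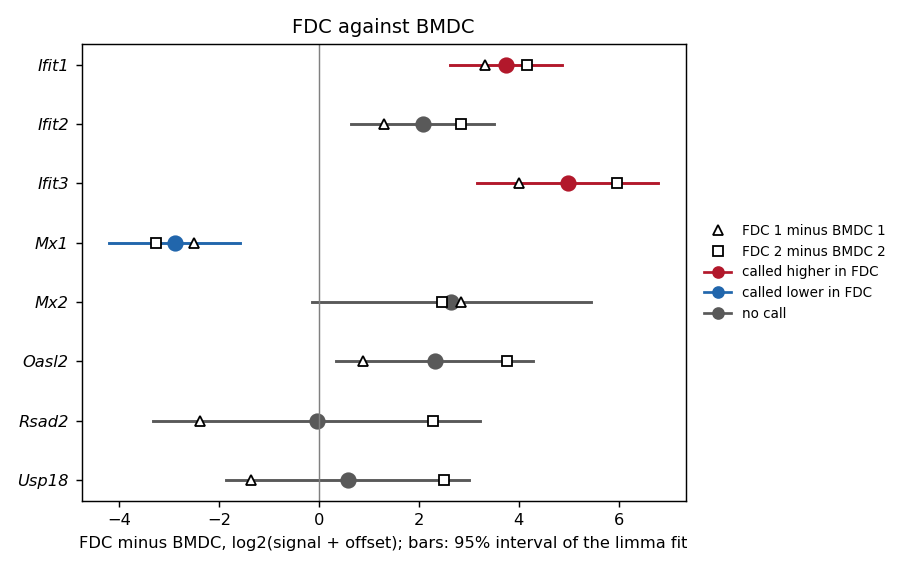
FDC minus BMDC difference of log2(signal + offset) for each of the 8 genes; filled circles are the limma estimates from 2 FDC and 2 BMDC arrays with their 95% intervals, and open symbols are the differences between arrays of the same number. Ifit1 and Ifit3 lie to the right of 0, Mx1 lies to the left, and the open symbols of Rsad2 and Usp18 lie on opposite sides of 0.

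The 2 FDC arrays stood apart for most of these genes. FDC array 2 was above FDC array 1 on 10 of 10 probe sets, as on 49.2% of the 45037 probe sets that are not controls. For 6 of the 8 genes it was above by at least 1 on the log2 scale, as for 14.9% of the 45037. The ratio of the 2 signals was smallest for Mx1 at 1.36 and for Ifit1 at 1.77. It was 2.69 for Ifit2, 4.09 for Ifit3, 4.50 for Oasl2, 4.99 for Mx2, 6.38 for Usp18 and 17.5 for Rsad2. Rsad2 and Usp18, which differed most between the FDC arrays, were not called against BMDC. The median difference over the 8 genes was 2.09, against -0.01 over all 45037 probe sets. With 1 array on each side this difference has no replicate check. Between the BMDC arrays, 3 of the 8 genes were higher on array 2, as were 52.5% of all probe sets. Of the 8, 3 differed by at least 1. Mx1 and Mx2 went upwards by that much (1.15 and 2.61), as did 15.1% of all probe sets, and Usp18 downwards (-1.19), as did 12.6%.

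Other interferon genes were read between the same FDC arrays. Of 36 measured genes on the list of other type I interferon effectors, 20 were at least 1 higher on FDC array 2 and 2 at least 1 lower, with a median of 1.08. Of 14 genes chiefly induced by interferon gamma, 12 were at least 1 higher and 0 lower, with a median of 1.81. For the steps before the effectors the median was -0.08 for 10 genes of the ligands and receptor, 0.32 for 9 of JAK-STAT transduction, -0.01 for 8 interferon regulatory factors, 0.64 for 15 sensors and adaptors and 0.28 for 8 negative regulators. Within those lists, Stat2, a part of the complex that binds the response element, had signals of 931.1 and 3344 on FDC arrays 1 and 2, and Irf7, which amplifies the response, had 795.4 and 2889. Stat2 and Irf7 were chosen after their values were seen.

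Several other measures moved between FDC arrays 1 and 2. The summed signal of 9 markers of fibroblastic stroma was 262949 on array 1 and 163590 on array 2, and 0 of 9 were higher on array 2. For 6 T cell markers the sums were 2103 and 1195 with 0 of 6 higher, and for 12 leukocyte and myeloid markers 4233 and 3070 with 5 of 12 higher. The same leukocyte list summed to 338705 and 260409 on the BMDC arrays. For 7 markers of plasmacytoid dendritic cells, which make large amounts of type I interferon, the sums were 3078 and 2100 with 1 of 7 higher. Tcf4, at 2368 and 1544, made up most of both sums, and it had 1993 in FL-Y. Siglech, the defining lectin of these cells, had 31.9 and 6.4. On FDC array 2 Siglech, Ly6d (8.4) and Ccr9 (5.7) were under the 20th percentile. These markers do not show whether such cells were present. For 5 mast cell markers the sums were 7081 and 10999, with 2 of 5 higher. In 4 B cell and 5 endothelial markers, 1 and 4 were higher on array 2, at sums of 356.3 and 267.6, and of 293.7 and 315.2. The ratio of labelling to hybridisation controls was 0.0801 on FDC array 1 and 0.219 on FDC array 2, and it was 0.0689 and 0.335 on the BMDC arrays. The ratio of the 3' to the 5' Gapdh control was 0.904 and 0.875 on the FDC arrays. The part of these measures in the difference between the FDC arrays was not tested.

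FL-Y was set beside the primary cells without a test, since it has 1 array. The counts in this paragraph use the representative probe set of each gene. On these, the FL-Y signal was below both FDC arrays for 8 of 8 genes and below both BMDC arrays for 7, the exception being Ifit2. The share of all probe sets below both arrays was not computed. For Rsad2 the probe sets differed. One of the others had 49.3 in FL-Y, above FDC array 1 by 1.27 on the log2 scale. That FDC signal, 12.2, was under the 20th percentile. FL-Y was below FDC array 2 and both BMDC arrays on that probe set. The remaining Rsad2 probe set had 9.6 in FL-Y, below all FDC and BMDC arrays. Of all 45037 probe sets, FL-Y was above FDC array 1 for 44.4%, above FDC array 2 for 45.2% and above the BMDC mean for 44.9%. Against the FDC mean, 7 of the 8 genes were lower by at least 1 on the log2 scale (6 with quantile normalization, one median or an offset at the 40th percentile), as were 18.6% of all probe sets, and the median was -4.51 against -0.13 over all probe sets (-4.21 against 0.16 with one median). Against FDC array 1 alone 7 genes were lower by at least 1, as were 22.2% of all probe sets, with a median of -3.51, and against FDC array 2 alone 8, as were 20.5%, with a median of -5.70. Usp18 had the largest difference at -5.92, followed by Ifit3 at -5.49, Oasl2 at -4.79 and Ifit1 at -4.59. With no offset Mx2 stood first at -6.76, before Usp18 at -6.58. Mx1, which is low in FDC as well, stood at -1.20 and Ifit2 at -0.85. Against the BMDC mean, 5 of 8 genes were lower by at least 1, as were 20.8% of all probe sets, and 1 (Ifit2, 1.23) was higher by at least 1, as were 15% of all. The differences from BMDC were -0.84 for Ifit1, -0.51 for Ifit3 and -1.77 for Mx2, and ran from -2.47 to -5.35 for Oasl2, Mx1, Rsad2 and Usp18. On the FL-Y array Mx2 was under the 20th percentile, so the size of its difference depends on the offset.

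Of the 36 other effectors, 28 were lower in FL-Y than the FDC mean by at least 1 and 0 higher, with a median of -2.79, and of 14 genes chiefly induced by interferon gamma 13 were lower and 0 higher, with a median of -4.86. The transmembrane effectors Ifitm2 and Ifitm3 had 14246 and 18603 signal units in FL-Y, which are differences of -0.12 and -0.22 from FDC. They were chosen after their values were seen, as were the chains of the type I receptor. Ifnar1 had a signal of 687.9 in FL-Y, against 1802 and 1868 on the FDC arrays and 2567 and 2200 on the BMDC arrays, and Ifnar2 had 2637 in FL-Y, against 11052 and 6908 in FDC and 4401 and 4059 in BMDC.

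Activation of FL-Y through the lymphotoxin beta receptor, which turns on NF-kB in stromal cells, was read on 1 array each. Activated FL-Y was above FL-Y for 5 of the 8 genes as the arrays were scaled, as for 43.5% of all probe sets. It was above for 7 genes with quantile normalization or with the arrays rescaled to one median, which moved the median of all probe sets to 0.0038 and 0.19. At least 1 higher were 0 of 8 genes, as were 4.86% of all probe sets, and at least 1 lower was 1, Mx1 at -1.02 (-0.86 and -0.88 in those scalings, -1.66 with no offset and -0.51 with an offset at the 40th percentile), as were 10.8% of all. The median over the 8 genes was 0.044, against -0.079 over all probe sets, and 0.21 and 0.27 in those scalings. Rsad2 had the largest positive value at 0.67 (1.02 with quantile normalization; 43.8 in activated FL-Y, 22.4 in FL-Y), but another of its probe sets had -1.24 (12.8 in activated FL-Y, 49.3 in FL-Y). These signals are low, and the probe sets of one gene did not go the same way. With the mean of a gene's probe sets, the median over the 8 genes was -0.060.

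In the rest of the pathway, the genes with the largest differences on activation in each list are named. At least 1 higher were 3 of 36 wider effectors, 2 of 8 negative regulators, 1 of 8 regulatory factors and 1 of 15 sensors and adaptors. At least 1 lower were 2 wider effectors, 2 regulatory factors, 1 sensor or adaptor and 1 of 10 ligand and receptor genes. Of all probe sets, 4.86% were at least 1 higher and 10.8% at least 1 lower. The inhibitor Socs1 had a signal of 86.6 in activated FL-Y, against 3.5 in FL-Y, which was under the 20th percentile, a log2 difference of 2.52. Tnfaip3, an inhibitor of NF-kB signalling, had 2376 in activated FL-Y, against 1157 in FL-Y (1.03). The RNA sensor Ddx58 had 609.8 in activated FL-Y, against 249.8 in FL-Y (1.24). Irf5 had 275.7 in activated FL-Y, against 103.6 in FL-Y (1.30), while Irf7 had 2.0 in activated FL-Y, against 61.3 in FL-Y (-2.23), the first under the 20th percentile. Of the wider effectors, the largest differences were those of Trim30a (-1.88) and Slfn8 (1.45), each with 1 signal under the 20th percentile. The largest in the other lists were those of Ifna4 (-1.40) and Ifna2 (0.79), Irf9 (-0.79) and Tyk2 (-0.68), Tlr9 (-1.27), and Psmb8 (0.97) and Nos2 (0.72). Ifna4 was under the 20th percentile in activated FL-Y, and Ifna2 and Nos2 in FL-Y. None of these has a replicate, and where a signal is under the 20th percentile the size depends on the offset.

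**Figure D3:**
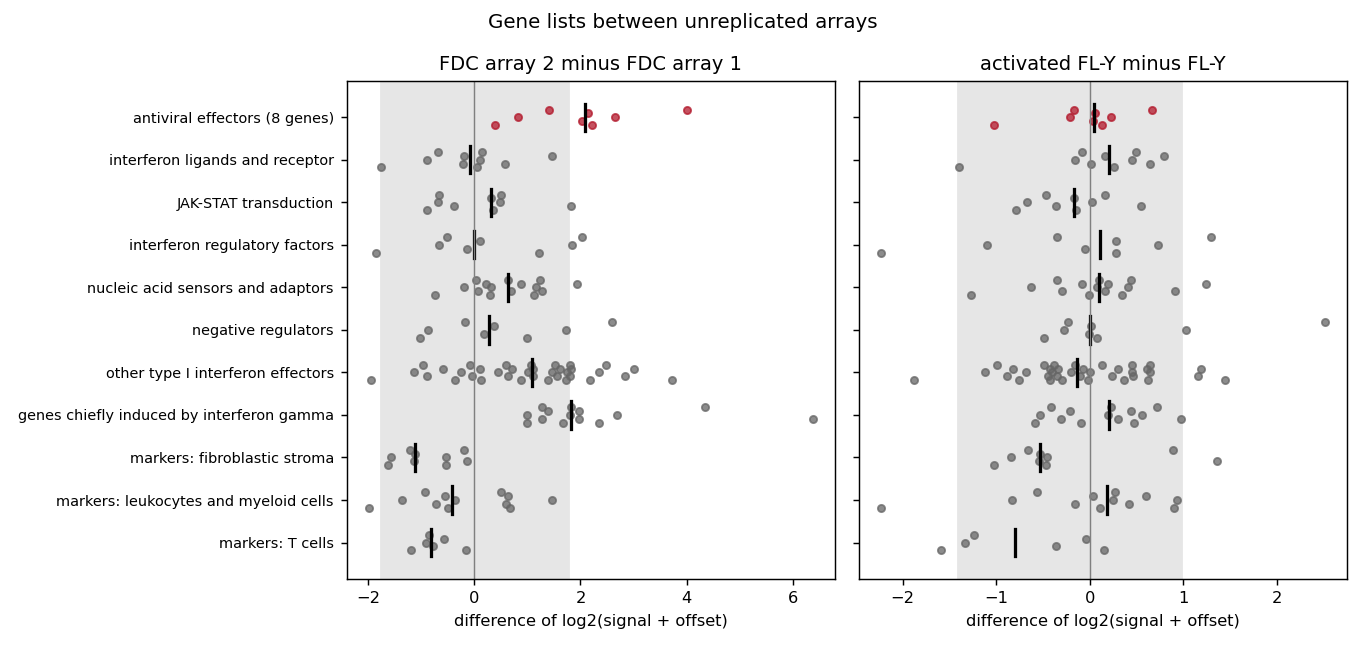
Differences of log2(signal + offset) for single genes of each list (points) with the list's median (black bar), FDC array 2 minus FDC array 1 on the left and activated FL-Y minus FL-Y on the right, 1 array on each side. The grey band spans the 5th to the 95th percentile of all probe sets; on the left the median of the antiviral effectors (2.09) lies to the right of the band and that of the genes induced by interferon gamma (1.81) at its edge, and on the right both medians (0.044 and 0.21) lie near 0.

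The pathway before the effectors was compared between FDC and BMDC in the same limma fit. The counts below stand beside the 4.83% of all probe sets tested that rose and the 4.09% that fell. In the list of ligands and receptor, 5 of 10 genes were tested and 0 passed, and 0 had an unadjusted p under 0.05. The 5 that were too dim to test were the ligands Ifnb1, Ifna1, Ifna2, Ifna4 and Ifng, with at most 115.2 signal units on any array. Ifnar2 had a difference of 1.05 ± 0.42 (SE; adjusted p = 0.219) and Il10rb, a receptor chain of other cytokines, of -0.82 ± 0.55 (adjusted p = 0.445). Of 9 genes of JAK-STAT transduction 0 rose and 2 fell. The receptor kinase Tyk2 fell by 2.08 ± 0.40 (adjusted p = 0.0389), and the leukocyte phosphatase Ptpn6 fell by 6.76 ± 0.39 (adjusted p = 0.00265), and without any 1 of the arrays 1 gene of the list fell. Of 8 interferon regulatory factors 0 rose and 3 fell: Irf5 fell by 5.29 ± 0.75, Irf4 fell by 5.01 ± 0.57 and Irf8 fell by 3.02 ± 0.38 (adjusted p of 0.0159, 0.00864 and 0.0114). Without BMDC array 1 or BMDC array 2, 2 fell, and without FDC array 1 1 rose as well. These 3 factors are known from cells of the immune system, and the 12 leukocyte markers fell in the same comparison; their part in this was not tested.

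Of 15 sensors and adaptors 1 rose and 1 fell, beside 4.83% and 4.09% of all probe sets tested. Tlr3, the sensor of double-stranded RNA, measured 320.1 and 522.4 on the FDC arrays, against 86.3 and 52.4 on the BMDC arrays, and rose by 2.37 ± 0.46 (adjusted p = 0.0384). Tlr7, which senses single-stranded RNA, was under the 20th percentile on both FDC arrays and fell by 4.80 ± 0.47 (adjusted p = 0.00604). The call of Tlr3 was lost without FDC array 2, BMDC array 1 or BMDC array 2, and that of Tlr7 without BMDC array 1. Of 8 negative regulators 0 passed with limma (1 at an unadjusted p under 0.05), with Cish at -2.18 ± 0.49 (adjusted p = 0.0577) and Socs3 at 2.04 ± 0.85 (adjusted p = 0.234).

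Of 35 effectors tested outside the named set, 1 rose and 2 fell, with a median of 0.58, beside the 4.83% and 4.09% of all probe sets given above. Without FDC array 1 3 rose and 2 fell, with a median of 1.32, and without FDC array 2 0 rose and 2 fell, with a median of 0.024. Without BMDC array 1 or BMDC array 2 each of these 3 calls was lost, at medians of 0.65 and 0.91. Rtp4, a transporter protein for receptors, rose by 3.15 ± 0.57 (adjusted p = 0.0314). The transmembrane protein Ifitm1 fell by 4.69 ± 0.82 (adjusted p = 0.0287) and Ifi27l2a fell by 2.68 ± 0.48 (adjusted p = 0.0319). Of 14 genes chiefly induced by interferon gamma 6 rose and 1 fell, with a median of 2.98. The GTPase Iigp1 measured 24305 and 48445 on the FDC arrays, against 54 and 62.7 on the BMDC arrays, and rose by 8.89 ± 0.48 (adjusted p = 0.00265). The chemokine Cxcl9 measured 1421 and 29344 on the FDC arrays, against 3.1 and 7.2 on the BMDC arrays, both under the 20th percentile. Cxcl9 rose by 8.41 ± 1.38 (adjusted p = 0.0243), a size that depends on the offset. The GTPases Gbp6 and Irgm2 rose by 6.33 ± 0.68 and 4.33 ± 0.53. Ciita, the master regulator of MHC class II genes, fell by 2.86 ± 0.51 (adjusted p = 0.0315), and is named as the 1 that fell, after its values were seen. Without 1 array the counts on this list were 8 and 0 (FDC array 1, with a median of 4.59), 5 and 1 of 12 tested (FDC array 2), 3 and 0 (BMDC array 1) and 3 and 0 (BMDC array 2). In the promoter windows of the wider effectors the core of the response element occurred in 16 of 39, and in those of the genes chiefly induced by interferon gamma in 6 of 11. The share of all windows was 3.44%. The gamma-activated site occurred in 6 of the 39 and in 4 of the 11, against 8.3% of all windows.

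The genes with the profile most like that of the 8 were sought among 12742 genes by the root mean square difference between centred log2 values over the 6 arrays, measured from the mean profile of the 8. The closest 8 were Stat2 (0.26), Bst2 (0.27), Il18bp (0.32), Samd9l (0.35), Trim21 (0.37), Gbp3 (0.40), Xaf1 (0.41) and Parp9 (0.42), in log2 units. Bst2, or tetherin, which holds budding virus on the cell, had signals of 613.1 in activated FL-Y, 557.6 in FL-Y, 5005 and 17581 in FDC and 1692 and 2452 in BMDC. The distances of the 8 genes themselves from their own mean ran from 0.47 for Oasl2 and 0.82 for Mx2 to 1.63 for Ifit2 and 1.96 for Mx1. The closest genes were picked from 12742 for a small distance and the 8 were not, so these distances cannot be compared with theirs. Taken singly, the closest gene was Irgm2 for Ifit3 (0.52), Gbp8 for Oasl2 (0.32) and Batf2 for Rsad2 (0.40). It was Spint2 for Mx1 (0.19), Fbxo27 for Ifit2 (0.21), Tpsb2 for Ifit1 (0.40), Prl3a1 for Mx2 (0.44) and Olr1 for Usp18 (0.49). The 6 points of each profile share arrays and cell types, so likeness is a description of these 6 arrays.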

How the data were processed

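Total RNA was labelled with biotin and measured on 1 array per sample, per the labels. The deposited table gives 1 linear intensity per probe set and array for 45101 probe sets, 64 of them controls. The deposited intensity values have a mean of 500 on every array after trimming 2% at each end; the program behind them is not given in the sources used here. Detection calls were not used, and the small number of arrays limits the precision. The platform annotation names 1 gene for 34945 probe sets and several for 932, and does not list 9160.

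Differences are on the log2(signal + 14.1) scale, with the median of the 20th percentiles of the 6 arrays as the offset, which understates the differences of dim genes. For a gene with several probe sets, the one of highest mean log2 value was taken. The 27022 probe sets with a mean above the 40th percentile on the 4 FDC and BMDC arrays (a signal of 46.4) were fitted with lmFit and eBayes of limma 3.58.1 (R 4.3.3; with residual degrees of freedom of 2 and prior ones of 3.35), with two-sided p-values adjusted by Benjamini-Hochberg over all of them and a threshold of 0.05. The fit was tested on simulated data, in which most changes of each size tried were not called, so a gene that did not pass is not shown to be unchanged. All FL-Y differences and those between single arrays are values with no test, read against a difference of 1. The genes, the pathway and marker lists and the tests were chosen with earlier results of these data known. From each list, up to 4 called genes with the largest difference are named (2 where none was called), and 2 for activation. Others are said to be chosen after their values were seen. Alternatives changed the offset, the scaling, the filter, the probe sets of a gene, the array number as a block and each array in turn.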

Additional observations from a re-analysis of the deposited data

How the results depend on the processing

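The rise of Ifit1 kept its direction and its call in all 11 alternatives, and the median over the 8 genes stayed positive in all 11, from 1.31 to 3.08 without 1 array. Against 2411 probe sets called in all, 1443 were called with no offset and a floor, 1428 with no filter and 1486 with the mean of each gene's probe sets, where genes and not probe sets were tested; without 1 array the count ran from 1305 to 2074. Of the 8 genes 1 to 4 rose and 0 to 1 fell without 1 array. With no offset, and with no filter, 0 fell (limma; 5 of the 8 had an unadjusted p under 0.05 as reported): Mx1 then had an adjusted p of 0.0563 and 0.0709. Over the pathway lists 8 genes rose and 9 fell; 3 and 3 did without BMDC array 1, 3 and 4 without BMDC array 2, 13 and 7 without FDC array 1, 5 and 8 without FDC array 2, 4 and 5 with no offset or no filter, and 5 and 6 with the mean of probe sets. A group left with 1 array was assumed to vary like the other. The sign of Rsad2 turned with an offset at the 40th percentile (0.033), with the mean of its probe sets (0.063), without BMDC array 1 (0.28) and without FDC array 1 (1.96), and without 1 array it ran from -2.05 to 1.96. That of Usp18 turned without BMDC array 2 (-0.02) and without FDC array 2 (-0.76), with a range from -0.76 to 1.90. The median difference of FL-Y from FDC ran from -5.70 to -3.51 without 1 FDC array, and that of activated FL-Y from FL-Y was -0.060 with the mean of a gene's probe sets. The cause of these changes was not tested. The labels link FDC and BMDC arrays by no more than that number, and with 2 numbers pairing cannot be settled. The deviations of the first arrays from their group means correlated at r = 0.199 across probe sets. The ratio of labelling to hybridisation controls was 0.0801 on FDC array 1 and 0.0689 on BMDC array 1. It was 0.219 on FDC array 2 and 0.335 on BMDC array 2. Whether arrays of the same number were processed together is not stated and was not tested. With the array number as a replicate block 2376 probe sets were called, and of the 8 genes 3 rose and 1 fell, the addition being Mx2 (2.65, adjusted p = 0.0312, limma). Signals near the 20th percentile, such as those of Mx2 and Rsad2 in FL-Y, limit the size of a difference that can be read.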
